A study of Homo sapiens with 10 samples.

Results

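The genes described here are the receptors and the core enzymes of sphingosine-1-phosphate (S1P), a signalling lipid, in a human myeloma line in which EFNB2 was activated. They were taken by gene name from the table of read counts and number 10 of the 60574 genes in it: the receptors S1PR1, S1PR2, S1PR3, S1PR4 and S1PR5, the kinases SPHK1 and SPHK2, the phosphatase SGPP1, the lyase SGPL1 and the exporter SPNS2. The family was picked with its fold changes in these libraries already known, so those fold changes are given as a description and without p-values. U266 is an established multiple myeloma line of plasma cell type. All libraries came from U266 cells that carried dCas9-VPR, a Cas9 that does not cut and is fused to transcriptional activators, delivered by lentivirus, and that were kept under blasticidin and puromycin. One set of 5 libraries (A to E) was from cells with a guide RNA to the start of EFNB2, the gene of the ligand ephrin-B2, and the other 5 (A to E) were from cells with a scrambled, non-targeting guide. The labels name no clone, and nothing in them ties the 5 libraries to 5 cultures, so each p-value reflects the library-to-library spread alone, which may be technical.

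S1P is made inside cells when a sphingosine kinase phosphorylates sphingosine, which ceramidases release from ceramide. S1P phosphatases turn it back into sphingosine, S1P lyase breaks it down irreversibly, and transporters release it to the outside, where it acts on a family of G protein-coupled receptors. In lymphocytes S1PR1 couples to Gi and draws cells out of tissue towards blood and lymph, where S1P is abundant. S1PR2 couples to G12 and G13 and restrains migration, and in mice it holds germinal centre B cells in their niche. In mice, antibody-secreting cells use S1PR1 to leave lymphoid tissue and to reach the bone marrow.

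Total counts ran from 47268072 to 56513548 per library and averaged 50445497 ± 2882751 with the EFNB2 guide and 54263865 ± 1950010 with the control guide (SD, n = 5 each; exact permutation test, two-sided, p = 0.0397). EFNB2 itself had 52 to 73 counts per library with its guide and 2 to 9 with the control guide, which is 1.21 ± 0.198 CPM (counts scaled to a common library size) in EFNB2 guide libraries, against 0.119 ± 0.0509 CPM in control libraries (SD, n = 5 each). That is a fold of 9.96 with a range of 7.03 to 14.1 over 2 standard errors (two-sided exact permutation test, p = 0.00794, the smallest that 252 splits can give), and a larger rise by qPCR is stated in the series' design text. The guides separated along the first principal component (61.7% of the variance), and along the second (8.33%) the A library of each guide lay farthest from the others. The tested S1P genes, and other named genes whose value moved by over 1.5 times, are therefore also given without both A libraries. Of 17834 genes tested with edgeR's quasi-likelihood test, 45.4% passed an adjusted p of 0.05, so a call by itself was common in this comparison. The median log2 fold change of all tested genes was 0.0073.

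S1PR1 rose strongly from a low level, S1PR2 and the lyase SGPL1 fell modestly, and neither kinase nor SGPP1 passed in the main fit. SPHK2 lay near the threshold and was called higher in 5 of 17 alternative fits, some of them with all 10 libraries. Of the 10 genes, 6 passed the filter on low counts. Among these 6, 1 was called higher and 2 lower, and the same 3 had CPM that did not overlap between the guides. Over all tested genes 45.4% were called, 22.8% higher and 22.6% lower, and 30.3% did not overlap. The genes were chosen from this same comparison, so nothing is read from their count. The median log2 fold change of the 6 was -0.07. The remaining 4 genes (S1PR3, S1PR4, S1PR5 and SPNS2) had too few counts to be tested.

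**Figure D1:**
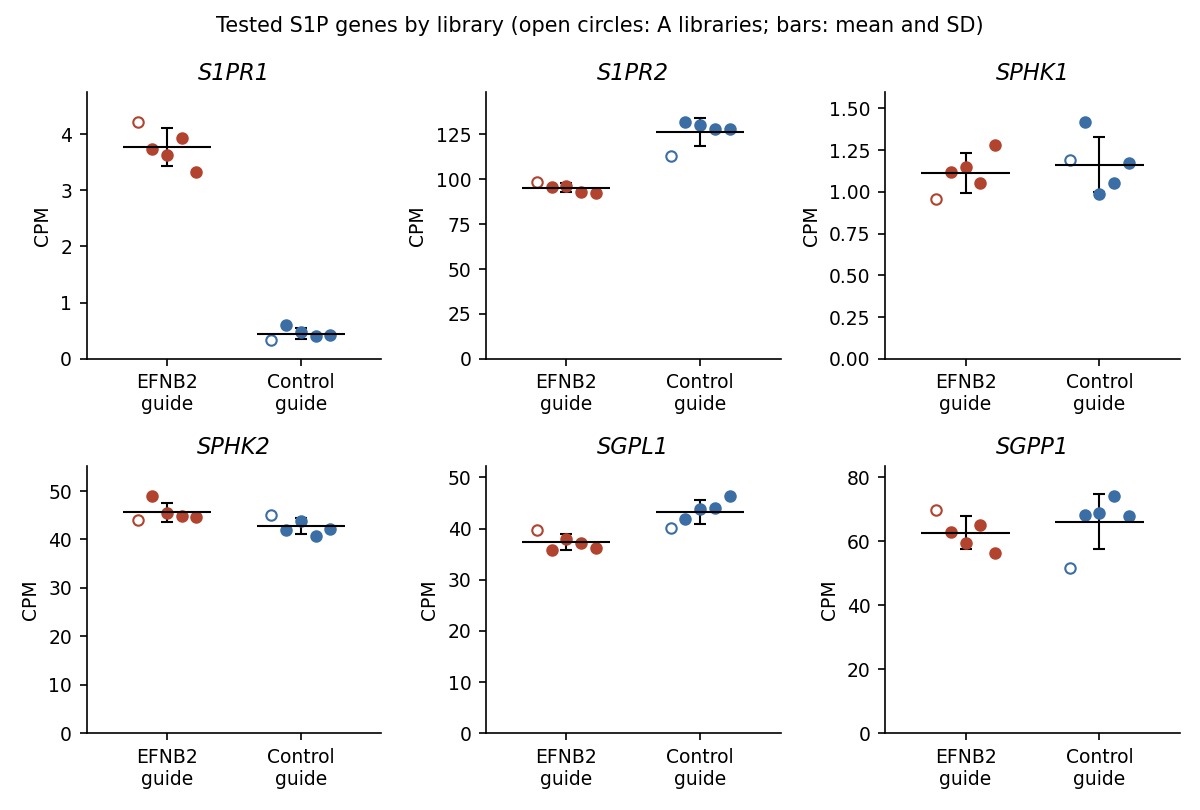
CPM (y axis, linear from 0) of the 6 S1P genes that passed the count filter, with 1 point per library, open circles for the A libraries, and horizontal and vertical bars for the mean and SD of the 5 libraries of a guide. S1PR1 lies between 3.32 and 4.22 CPM with the EFNB2 guide, above every control library, while S1PR2 and SGPL1 lie below the control libraries and SPHK1, SPHK2 and SGPP1 overlap between the guides.

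S1PR1, the Gi-coupled receptor of lymphocyte exit, lies on chromosome 1 (chr1:101236899-101242313, plus strand, GRCh38). Its CPM were 4.22, 3.73, 3.62, 3.93 and 3.32 in EFNB2 guide libraries A to E, against 0.34, 0.601, 0.484, 0.404 and 0.419 in control guide libraries A to E. The lowest EFNB2 guide library was thus several times above the highest control library. The underlying counts were 230, 193, 173, 192 and 168 with the EFNB2 guide and 18, 31, 27, 22 and 23 with the control guide. Means were 3.77 ± 0.339 CPM in EFNB2 guide libraries, against 0.45 ± 0.0989 CPM in control libraries (SD, n = 5 each). The log2 fold change was 3.06 with a standard error of 0.13, an 8.35-fold rise with a range of 6.94 to 10.1 over 2 standard errors. Summed over libraries and divided by the totals, 956 counts against 121 gave a ratio of 8.4 with a 95% exact interval of 6.95 to 10.2, which covers counting error only. Of all genes called higher, 80 rose by a larger fold. Without both A libraries the log2 fold change was 2.93. These are bulk RNA libraries, in which more cells with a receptor and more receptor RNA per cell cannot be told apart.

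The RefSeq window at the start of S1PR1 held 23 CpG dinucleotides and 64.7% G and C, against medians of 14 and 58.7% over 35116 windows of the same size. The 96 bases upstream of the first annotated start are shown because S1PR1 had the largest change of the family (RefSeq GRCh38.p14, chr1:101236769-101236864, plus strand, 5′ to 3′). No capitals appear, since these letters hold, on either strand, no KLF core (CACCC), no GC box (GGGCGG), no STAT core (TTCNNNGAA), no TATA motif (TATAAA) and no cAMP response element (TGACGTCA).
S1PR1: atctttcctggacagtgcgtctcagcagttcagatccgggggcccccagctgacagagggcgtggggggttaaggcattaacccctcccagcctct

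S1PR2, the receptor that couples to G12 and G13, was the receptor with by far the most RNA (chr19:10221433-10231331, minus strand). Its CPM were 98.6, 95.9, 96.1, 93.1 and 92.2 in EFNB2 guide libraries A to E, against 113, 132, 130, 128 and 128 in control guide libraries A to E. The groups did not overlap, and the lowest control library was A. Means were 95.2 ± 2.54 CPM in EFNB2 guide libraries, against 126 ± 7.48 CPM in control libraries (SD, n = 5 each). The log2 fold change of -0.41 had a standard error of 0.04, so that S1PR2 fell by 24.7%. Of the genes called lower, 991 fell by a larger fold, so S1PR2 was not among the steepest. Without both A libraries the log2 fold change was -0.46.

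The 250 bases upstream of the annotated start of S1PR2 are shown as those of the most abundant member (RefSeq GRCh38.p14, chr19:10231332-10231581, minus strand, 5′ to 3′ as transcribed). Capitals mark motif matches on either strand: 2 of CACCC, the core that KLF factors bind (here read as GGGTG), 3 of GGGCGG, the GC box, and 1 of TGACGTCA, the cAMP response element, a motif looked for after this sequence had been read.
S1PR2: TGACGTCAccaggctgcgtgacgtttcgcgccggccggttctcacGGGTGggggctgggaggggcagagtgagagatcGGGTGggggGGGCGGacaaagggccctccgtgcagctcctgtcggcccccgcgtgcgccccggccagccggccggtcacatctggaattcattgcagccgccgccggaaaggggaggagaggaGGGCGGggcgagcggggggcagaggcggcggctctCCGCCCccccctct

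RefSeq windows of 300 bases (250 before a start and 50 after) matched 8 of the 10 genes, with 13 windows in all, since some genes have several starts. CACCC was in 10 of these 13 windows, against 59.9% of all 35116 windows, and GGGCGG was in 8, against 45.0%. In S1PR1 both CACCC matches lay beyond the first annotated start. The STAT core TTCNNNGAA was in 1 window, that of SPHK1, against 7.66% of all windows, and TGACGTCA was in 1, that of S1PR2, against 1.85%. TATAAA was in 0 of the 13, against 11.5%. Such matches are descriptions of letters, and no binding was measured.

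The other receptors were at or near 0. S1PR3, a receptor that couples to several G proteins, had 0, 0, 0, 2 and 1 counts in EFNB2 guide libraries A to E, against 0 in each of the 5 control libraries. S1PR4, a receptor of blood cells, had 1, 0, 0, 0 and 1 counts with the EFNB2 guide, against 0, 0, 0, 0 and 1 with the control guide. S1PR5, which natural killer cells use to leave the marrow in mice, had 0 counts in all 10 libraries. Over the 5 libraries of a guide, a count of 0 allows up to 0.0118 CPM for the EFNB2 guide and 0.0111 CPM for the control. Every group total of these 3 receptors was at or under the 3 counts behind those limits, and no fold is given.

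Levels of different genes were compared as CPM per kilobase of exon. On this scale S1PR1 made up 4.03 ± 0.29% of the summed receptor level with the EFNB2 guide and 0.374 ± 0.0653% with the control guide (SD, n = 5 each). It ranged over 3.68% to 4.35% with the EFNB2 guide and over 0.318% to 0.48% with the control guide, so the groups did not overlap. The level of S1PR2 was 23.9 ± 1.75 times that of S1PR1 with the EFNB2 guide and 272 ± 42.6 times with the control guide (SD, n = 5 each). S1PR2 therefore remained the main receptor RNA under both guides. The receptors summed to 27.2 ± 0.766 CPM per kilobase with the EFNB2 guide, below 34.8 ± 2.09 with the control guide (SD, n = 5 each). Both quantities are built from the fold changes by which the family was chosen and were not tested.

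**Figure D2:**
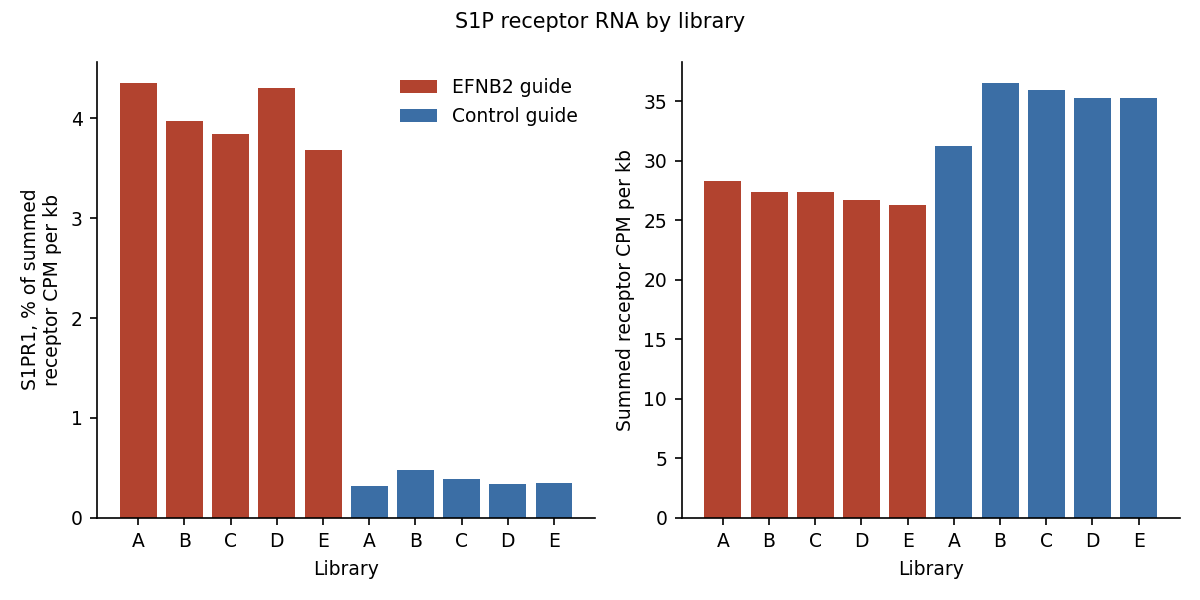
Left, the level of S1PR1 as a percentage of the summed S1P receptor level, and right, that summed level, both from CPM per kilobase of exon (y axes from 0), with 1 bar per library (x axis, A to E of the EFNB2 guide, then A to E of the control guide). S1PR1 makes up 3.68% to 4.35% with the EFNB2 guide and 0.318% to 0.48% with the control guide, while the sum is 26.3 to 28.3 with the EFNB2 guide and 31.2 to 36.5 with the control guide.

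Cell type markers were compared beside the receptors. All 8 plasma cell markers passed the filter. They summed to 5510 to 5790 CPM in EFNB2 guide libraries, against 5800 to 6600 CPM in control libraries. Of these 8, 3 were called higher and 3 lower, where 45.4% of all tested genes were called. The largest were SDC1, at a mean of 2120 CPM with the EFNB2 guide and 3010 with the control guide, and JCHAIN, at 2040 and 1900. The 5 endothelial markers, relevant because endothelium is rich in S1PR1, summed to 1.97 to 2.35 CPM in EFNB2 guide libraries, against 1.98 to 2.88 CPM in control libraries, with none of the 2 tested called and CDH5 at 0 counts in every library. Most of that sum was PECAM1. TEK, also endothelial and too low to be tested, had 15 counts in all, every one with the EFNB2 guide, an average of 0.0591 CPM with the EFNB2 guide and 0 with the control guide. The 5 T cell markers summed to 3.07 to 3.6 CPM in EFNB2 guide libraries, against 2.92 to 4.82 CPM in control libraries, mostly CD3E, with CD3D at 3 counts in all. The 5 B cell markers summed to 0.328 to 0.534 CPM in EFNB2 guide libraries, against 0.22 to 0.605 CPM in control libraries. The 5 myeloid markers summed to 2.42 to 3.42 CPM in EFNB2 guide libraries, against 2.08 to 2.58 CPM in control libraries, mostly ITGAM, and 1, CD14, was called higher, at 0.287 CPM on average with the EFNB2 guide and 0.0782 with the control guide. The 5 markers of kidney epithelium, chosen for virus packaging cells, summed to at most 0.0988 CPM in any library. The part of these markers in the receptor values was not tested.

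Of the kinases, SPHK2, which acts mainly in the nucleus and at internal membranes, was the main RNA (chr19:48619506-48630405, plus strand). Its CPM were 44.0, 49.0, 45.4, 44.8 and 44.7 in EFNB2 guide libraries A to E, against 45.1, 42.0, 43.9, 40.8 and 42.1 in control guide libraries A to E. Control library A lay within the range of the EFNB2 guide, and the other 4 control libraries lay below that range. Means were 45.6 ± 1.96 CPM in EFNB2 guide libraries, against 42.8 ± 1.72 CPM in control libraries (SD, n = 5 each), with a log2 fold change of 0.09 (standard error 0.04) that did not pass. It passed, as higher, in 5 of 17 alternatives, with 0.12 without both A libraries.

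SPHK1, the kinase found mostly in the cytosol and recruited to the plasma membrane, was far lower (chr17:76383204-76387855, plus strand). Its CPM were 0.955, 1.12, 1.15, 1.05 and 1.28 in EFNB2 guide libraries A to E, against 1.19, 1.42, 0.985, 1.05 and 1.17 in control guide libraries A to E. The ranges overlapped, with EFNB2 guide library A below every control library and control library B above every EFNB2 guide library. The log2 fold change was -0.06 with a standard error of 0.13, which spans -0.33 to 0.21 over 2 standard errors, and it was -0.0006 without both A libraries. Per kilobase of exon SPHK2 made up 96.3 ± 0.39% of the kinase level with the EFNB2 guide and 95.9 ± 0.583% with the control guide (SD, n = 5 each).

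SGPL1, the lyase that ends the pathway by splitting S1P, lies on chromosome 10 (chr10:70815948-70881184, plus strand). Its CPM were 39.7, 35.8, 38.0, 37.1 and 36.3 in EFNB2 guide libraries A to E, against 40.2, 41.8, 43.8, 44.0 and 46.4 in control guide libraries A to E. The groups did not overlap, though the A libraries nearly met. Means were 37.4 ± 1.56 CPM in EFNB2 guide libraries, against 43.3 ± 2.37 CPM in control libraries (SD, n = 5 each). The log2 fold change was -0.21 with a standard error of 0.04, so SGPL1 fell by 13.6%, and it was -0.26 without both A libraries.

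SGPP1, the phosphatase of the endoplasmic reticulum that returns S1P to sphingosine, lies on chromosome 14 (chr14:63684216-63728065, minus strand). Its CPM were 69.8, 62.8, 59.4, 65.0 and 56.5 in EFNB2 guide libraries A to E, against 51.6, 68.2, 68.8, 74.2 and 67.8 in control guide libraries A to E. The A libraries ran against the rest: A was the highest library of the EFNB2 guide and the lowest of the control guide. Means were 62.7 ± 5.12 CPM in EFNB2 guide libraries, against 66.1 ± 8.5 CPM in control libraries (SD, n = 5 each), with a log2 fold change of -0.08 (standard error 0.08) that did not pass. Without control library A it was -0.15 and without both A libraries -0.20, and both were called lower. In those 8 libraries the means were 60.9 CPM for the EFNB2 guide and 69.7 CPM for the control.

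**Figure D3:**
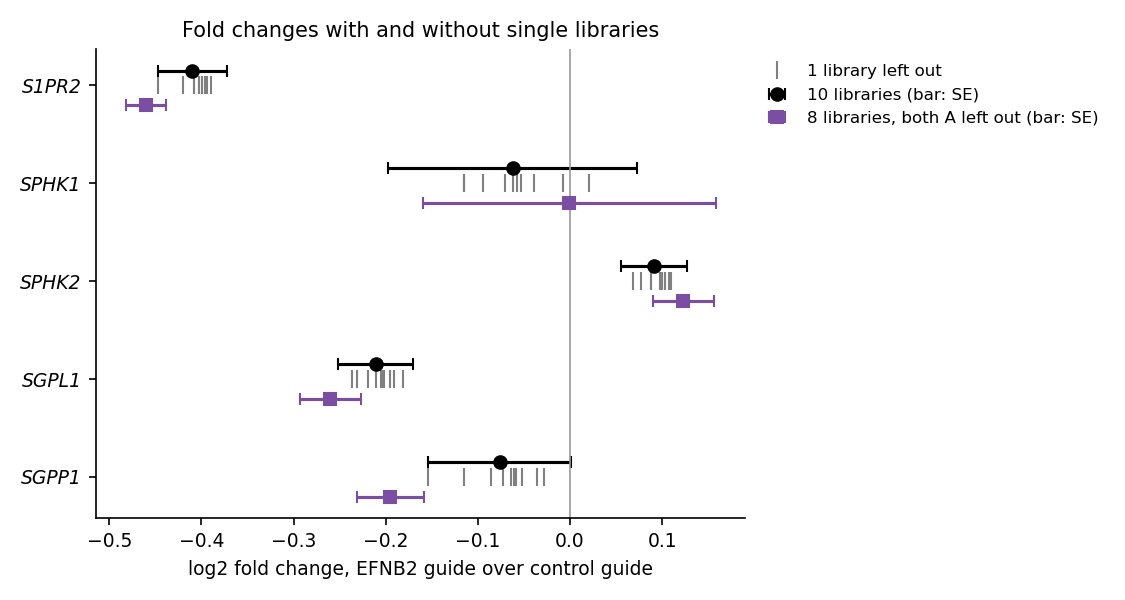
Log2 fold change, EFNB2 guide over control guide (x axis), of S1PR2, SPHK1, SPHK2, SGPL1 and SGPP1 with 10 libraries (circle, bar 1 standard error), with 1 library left out (grey ticks) and without both A libraries (square, bar 1 standard error). SGPP1 moves from -0.08 to -0.20 when the A libraries are left out, while S1PR2 stays between -0.46 and -0.39 and SGPL1 between -0.26 and -0.18 over these fits.

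SPNS2, the S1P exporter, which in endothelium supplies lymph in mice, had few counts (chr17:4498881-4539035, plus strand). Its counts were 4, 4, 0, 1 and 2 in EFNB2 guide libraries A to E, against 8, 3, 2, 2 and 9 in control guide libraries A to E. The sums of 11 and 24 counts gave a ratio of 0.488 with a 95% exact interval of 0.216 to 1.03, so a difference was not detectable at this depth.

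By CPM per kilobase of exon, the order with the EFNB2 guide was S1PR2 (26.1), SGPP1 (18.9), SPHK2 (9.68), SGPL1 (6.51), S1PR1 (1.1), SPHK1 (0.37) and SPNS2 (0.0122), then S1PR4, S1PR3 and S1PR5. With the control guide the order was S1PR2 (34.7), SGPP1 (20.0), SPHK2 (9.09), SGPL1 (7.53), SPHK1 (0.387), S1PR1 (0.131) and SPNS2 (0.0259), then the other receptors. S1PR1 thus stood above SPHK1 with the EFNB2 guide and below it with the control guide. Within each guide, neighbours down to SPNS2 had ranges over libraries that did not overlap, and from SPNS2 down the ranges met. Among all tested genes with a length, S1PR1 stood at percentile 29.3 of the level per kilobase with the EFNB2 guide and 6.52 with the control guide, while S1PR2 stood at 85.0 with the EFNB2 guide and 88.9 with the control guide.

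Some of these genes overlap others in the GENCODE 29 annotation. The span of S1PR2 overlaps that of DNMT1 on the same strand with no shared exonic base, while in RefSeq the 2 genes lie 26480 bases apart. DNMT1, the maintenance DNA methyltransferase, went the other way, with a log2 fold change of 0.16 (adjusted p = 0.00112, edgeR's quasi-likelihood test, as for all adjusted p-values here). SPHK2 shares 246 exonic bases with RPL18, a ribosomal protein gene, and 661 with DBP, a circadian transcription factor gene, both on the opposite strand. RPL18 fell by 0.19 (adjusted p = 0.000161) and DBP by 0.27 on the log2 scale (adjusted p = 0.0117). The library kit keeps strand, but the strand setting of the counting is not given in the sources used here, so reads of SPHK2 and of these partners may have been mixed, and the part of this in the SPHK2 value was not tested. SPHK1 shares no exonic base with PRPSAP1 on the opposite strand, which fell by 0.12 on the log2 scale (adjusted p = 0.003). SPNS2 shares 139 bases with MYBBP1A, also on the opposite strand, which had a log2 fold change of 0.03 (adjusted p = 0.344), or 0.05 without both A libraries. MYBBP1A had 46931 counts in all, so the few SPNS2 counts may also hold reads of MYBBP1A, and this was not tested.

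The next list held genes known to regulate S1PR1 or to act beside it in lymphocyte traffic. Of 12 listed, 11 were tested, with 6 called higher and 1 lower, a share of 63.6%. Over all genes the share was 45.4%, or 53.8% with a filter of 1 CPM in 5 libraries. The median log2 fold change of the list was 0.12. KLF2, the transcription factor that drives S1PR1 in T cells, had 24.5 to 34.1 CPM in EFNB2 guide libraries, against 18.7 to 20.7 CPM in control libraries. The groups did not overlap, and KLF2 rose by a log2 fold change of 0.66 (standard error 0.07, adjusted p = 2.7e-06).

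CD69, a membrane protein that binds S1PR1 and takes it off the surface, rose at a low level, with 1.14 to 1.63 CPM in EFNB2 guide libraries, against 0.275 to 0.407 CPM in control libraries (log2 fold change 2.03, standard error 0.17, adjusted p = 1.03e-07). The lymph node homing receptor CCR7 rose by a log2 fold change of 1.05 (adjusted p = 0.00371) at under 1 CPM in every library. CD69 and CCR7 were chosen for naming after their values were seen. STAT3, which drives S1PR1 in tumour cells, rose by 0.12 on the log2 scale (adjusted p = 0.011), and the hypoxia factor HIF1A by 0.15 (adjusted p = 0.00885), or 0.08 without both A libraries. CXCR4, the receptor that retains plasma cells in bone marrow, fell by 0.17 on the log2 scale (adjusted p = 3.1e-05), with 217 ± 2.79 CPM in EFNB2 guide libraries, against 243 ± 6.43 CPM in control libraries (SD, n = 5 each). FOXO1, PRDM1, CXCR5 and P2RY8 did not pass, and GPR183 had 0 counts in all libraries.

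The coupling machinery of the receptors was mixed. Of 26 genes, 23 were tested, with 7 called higher and 5 lower, a share of 52.2%, near the 45.4% of all genes, and the median log2 fold change was 0.015. RGS1, a GTPase-activating protein that damps Gi signalling of chemoattractant receptors, had the smallest adjusted p of the list, with 42.5 ± 1.05 CPM in EFNB2 guide libraries, against 16.6 ± 1.11 CPM in control libraries (SD, n = 5 each). The rise was 1.35 on the log2 scale (standard error 0.04, adjusted p = 1.86e-12). RGS13, of the same family and chosen after its values were seen, rose by a log2 fold change of 2.97 (adjusted p = 7.6e-09), with 1.65 to 2.45 CPM in EFNB2 guide libraries, against 0.143 to 0.349 CPM in control libraries. RGS16 fell by 0.30 on the log2 scale (adjusted p = 0.00299).

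Among receptor kinases, GRK2, which phosphorylates S1PR1 and drives its internalisation, rose by 0.14 on the log2 scale (adjusted p = 0.000144) and GRK6 by 0.13 (adjusted p = 0.00324), while GRK5 fell by 0.45 (adjusted p = 4.44e-07). GRK5 had 11.3 ± 0.47 CPM in EFNB2 guide libraries, against 15.4 ± 0.353 CPM in control libraries (SD, n = 5 each), with no overlap. The Gi subunit gene GNAI2 fell by 0.12 on the log2 scale (adjusted p = 0.0041), and RAC1, a GTPase downstream of S1PR1, rose by 0.13 (adjusted p = 0.000586). On the side of S1PR2, GNA12 and GNA13 did not pass, at log2 fold changes of -0.04 and 0.02. ARHGEF12, an exchange factor that G12 and G13 engage, fell by 0.18 on the log2 scale (adjusted p = 0.0458, and from 4.95e-08 to 0.121 over 17 alternatives, of which 10 ended the call; -0.27 without both A libraries). PLCB2, a phospholipase C that G proteins activate, was named after its values were seen and fell by 0.89 on the log2 scale (adjusted p = 0.000265) at 0.67 ± 0.104 CPM in EFNB2 guide libraries, against 1.24 ± 0.197 CPM in control libraries (SD, n = 5 each).

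Upstream of the kinases, the genes that build ceramide and release sphingosine were counted next. Of 22 listed, 15 were tested, with 3 called higher and 8 lower, a share of 73.3%. Over all genes the share was 45.4%, or 53.8% with a filter of 1 CPM in 5 libraries. The median log2 fold change of the list was -0.14. ASAH1, the lysosomal acid ceramidase that releases sphingosine, had 211 to 248 CPM in EFNB2 guide libraries, against 267 to 322 CPM in control libraries. It fell by 0.48 on the log2 scale (standard error 0.05, adjusted p = 2.65e-06), and its log2 fold change was -0.57 without both A libraries. The A library was the highest of the EFNB2 guide and the lowest of the control guide. SPTLC2, a subunit of serine palmitoyltransferase, the first enzyme of sphingolipid synthesis, fell by 0.25 on the log2 scale (adjusted p = 2.23e-05). ORMDL3, which inhibits that enzyme, fell by 0.25 as well (adjusted p = 7.41e-07), and the ceramide synthase CERS4 fell by 0.27 (adjusted p = 2.69e-05).

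Higher calls in that list were the alkaline ceramidase ACER3, with a log2 fold change of 0.33 (adjusted p = 2.32e-05), the serine palmitoyltransferase subunit SPTLC1, with 0.11 (adjusted p = 0.0186, lost in 3 of 17 alternatives), and the neutral ceramidase ASAH2. ASAH2 was named after its values were seen and rose by 0.69 on the log2 scale (adjusted p = 0.00264) at 0.864 ± 0.142 CPM in EFNB2 guide libraries, against 0.535 ± 0.0588 CPM in control libraries (SD, n = 5 each).

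**Figure D4:**
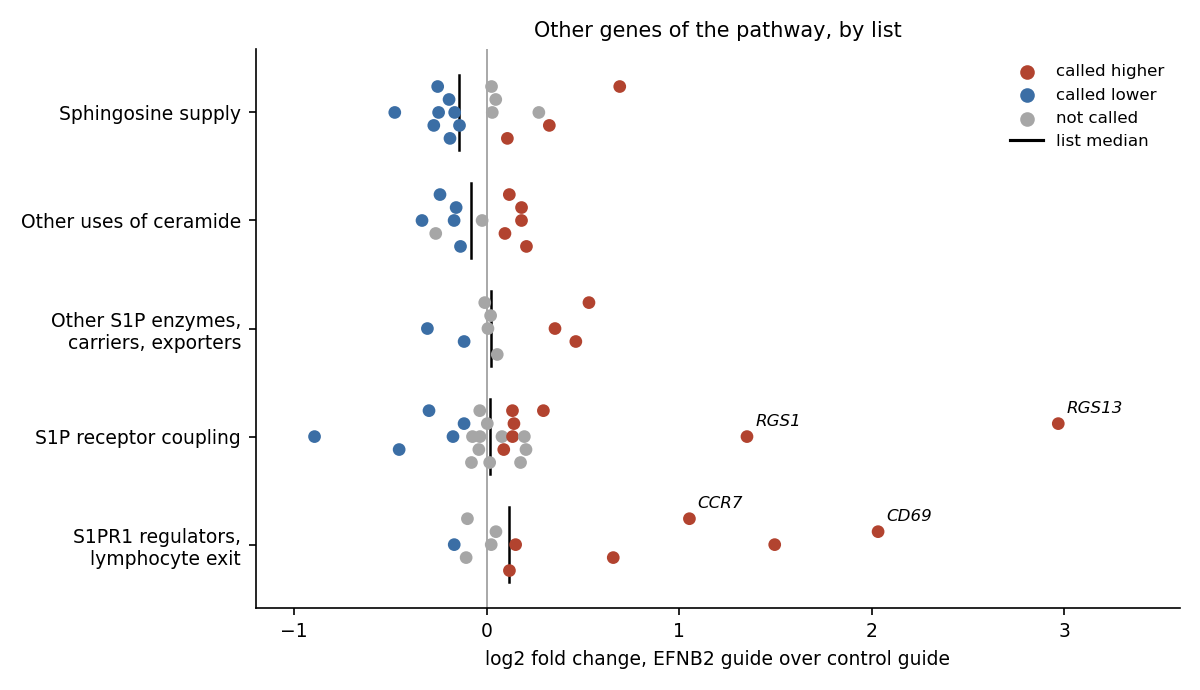
Log2 fold change, EFNB2 guide over control guide (x axis), of each tested gene in 5 lists of other pathway genes (rows), in red where called higher, blue where called lower and grey where not called, with a black line at the list median. The medians lie between -0.14 and 0.12, and RGS13, CD69, RGS1 and CCR7 are among the points farthest to the right.

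All 12 genes of the other routes of ceramide were tested, with 5 called higher and 5 lower, a share of 83.3%. Over all genes the share was 45.4%, or 53.8% with a filter of 1 CPM in 5 libraries. The median log2 fold change of the list was -0.08. UGCG, which makes glucosylceramide, rose by 0.21 on the log2 scale (adjusted p = 0.000225), SMPD4, a neutral sphingomyelinase, by 0.18 (adjusted p = 0.000131) and SAMD8, a ceramide phosphoethanolamine synthase, by 0.18 (adjusted p = 0.00562). GBA2, a non-lysosomal glucosylceramidase, rose by 0.12 (adjusted p = 0.0229, lost in 4 of 17 alternatives). The sphingomyelinases SMPD2 and SMPD3 fell by 0.34 (adjusted p = 0.00317) and 0.24 (adjusted p = 0.00146). The ceramide carrier CERT1 fell by 0.16 on the log2 scale (adjusted p = 0.00117).

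Of 11 further S1P enzymes, carriers and exporters, 9 were tested, with 3 called higher and 2 lower, a share of 55.6%, near the 45.4% of all genes, and the median log2 fold change was 0.02. The transporters ABCA1 and ABCG2, both described as able to export S1P, rose by 0.53 (adjusted p = 0.000821) and 0.46 (adjusted p = 4.97e-07) on the log2 scale. ABCC1, another such exporter, did not pass, at 0.02. CIB1, which carries SPHK1 to the plasma membrane, rose by 0.35 (adjusted p = 5.79e-06). ALDH3A2, which oxidises the aldehyde that SGPL1 releases, fell by 0.31 on the log2 scale (adjusted p = 2.11e-06) and thus moved in the direction of SGPL1. The lipid phosphatase PLPP2 fell by 0.12 (adjusted p = 0.003).

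The genes whose log2 CPM ran most like each S1P gene over the 10 libraries were listed by Pearson's r, as a description in which all points share library and depth. For S1PR1 these were CYSLTR1 (0.996), MYO10 and PSMA4 (0.995 each), and after each guide's mean was subtracted r was 0.732, 0.772 and 0.687. For S1PR2 they were ZMIZ1 and KLHL6 (0.995 each) and TTC3 (0.993), with 0.945, 0.934 and 0.942 after the guide means. For SGPL1 they were CEP68 and HS1BP3 (0.982 each) and NAA30 (0.975), and for SGPP1 they included CCPG1 (0.966) and VPS37B (0.961). For SPHK2 they were PPIH (0.968), SIVA1 (0.952) and FASTK (0.934), and for SPHK1 TTL (0.939), CLEC18B (0.893) and SLC4A11 (0.89).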

How the data were processed

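Poly(A) RNA of U266 cells was sequenced as strand-specific read pairs, per the labels' protocols. STAR 2.27a, Partek, DESeq2 and the build GRCh38 are listed, without their roles, in the submitters' processing notes, and for the gene annotation and the strand setting the sources used here give nothing. All results rest on the raw count table that the authors deposited, with whole, unscaled read counts for each gene. Their normalized table was not used here. Of the rows, 3 name no gene and were left out, with at most 7e-05% of the counts in any library. Libraries were grouped by their titles.

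Counts were tested with edgeR 4.0.16 (R 4.3.3): the filterByExpr function left 17834 genes, libraries were scaled by TMM, and the quasi-likelihood test had guide as its only term, with Benjamini-Hochberg adjustment over all tested genes and a threshold of 0.05. CPM divide a count by the library size after TMM scaling, with a prior count of 2 added for log2 CPM. Standard errors were taken as the size of the log2 fold change divided by the square root of F. The common biological coefficient of variation was 0.0489. Levels per kilobase use the exon union of GENCODE 29, which may differ from the authors' annotation. A count of 0 in a library allows up to 3 counts, or 0.0537 to 0.0627 CPM at these depths. Intervals on counts cover counting error only.

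The S1P genes, the pathway lists and the tests were chosen with earlier results of these data known. Besides the 10 genes and EFNB2, the text names from each list up to 4 genes called higher and 4 lower with the smallest adjusted p at a mean log2 CPM of at least 1, the 3 genes most alike to each tested member by Pearson's r, and genes overlapping a member. Clone-named models and a microRNA gene among these are left out, some others are not reported here, and further genes are said to be chosen after their values were seen. Libraries of a guide differed by more than sampling noise in every pair (chi-square over degrees of freedom of 1.95 or more). Each was entered as 1 replicate, though such spread does not show that they came from separate cultures. The steps were tested on simulated counts of 17630 genes for this comparison: 70%, 96%, 98% and 100% of genes changed 1.25-fold, 1.5-fold, 2-fold and 4-fold were recovered, and 6.67% of calls fell on unchanged genes. The changed genes, 50 for each fold, all had a mean of at least 1 CPM and were far fewer than the 8098 called in the data. The simulation therefore says nothing of genes under 1 CPM or of a comparison with so many changes. Alternatives were DESeq2 1.42.0, scaling by RLE or by library totals alone, a filter of 1 CPM in 5 libraries or none, the replicate letter as a block and omitting 1 library at a time. A fit without both A libraries was added after seeing the data.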

Additional observations from a re-analysis of the deposited data

Results flagged for a closer look

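Within the 5 libraries of a guide, 15 of 110 sets of values had 1 library apart from the rest (Dixon's test at 95%). Chance gives about 1 in 20 for separate sets. These sets share the same libraries, so the 15 cannot be judged by that rate. Of the 15, 12 were an A library, 9 of the control guide and 3 of the EFNB2 guide. For the S1P genes, control library A had 113 CPM of S1PR2, against 128 to 132 in the other control libraries, and 51.6 CPM of SGPP1, against 67.8 to 74.2. Library B of the EFNB2 guide had 49.0 CPM of SPHK2, against 44.0 to 45.4 in the others of that guide. The 1 count of S1PR4 in control library E, 0.0182 CPM, stood against 0 in the other control libraries and is a single read.

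Of the pathway genes, ASAH1 was at 248 CPM in library A of the EFNB2 guide, against 211 to 220 in the others, and at 267 CPM in control library A, against 317 to 322. Library A of the EFNB2 guide also had 24.5 CPM of KLF2, against 32.0 to 34.1, and 18.9 CPM of DBP, against 15.1 to 16.2. Control library A had 15.6 CPM of DBP, against 19.7 to 21.0, 53.1 CPM of SMPD3, against 43.5 to 46.0, and 134 CPM of SMPD4, against 122 to 124. It also had 6.05 CPM of ABCA1, against 8.69 to 9.71, 454 CPM of GNAI2, against 492 to 498, and 169 CPM of STAT3, against 186 to 192. Library E of the EFNB2 guide had 1.11 CPM of ASAH2, against 0.754 to 0.845 in the others of that guide.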

How the results depend on the processing

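Over 17 alternatives, all on these same libraries, the log2 fold change was 2.93 to 3.19 for S1PR1, -0.46 to -0.39 for S1PR2 and -0.26 to -0.18 for SGPL1. These genes were picked by such values, so the ranges describe the choice of processing alone. The number of S1P genes called was 3 in the main fit and 3 or 4 in the alternatives that kept all libraries. It was 3 to 5 when single libraries were left out. Without control library A or without both A libraries it was 5, and there SPHK2 was also called higher and SGPP1 lower. Calls over all tested genes were also more common in those fits, at 50.6% and 55.2%, against 45.4% in the main fit. SPHK2 was called as well with library totals alone, with the 1 CPM filter and without library A of the EFNB2 guide. The calls of all genes ran from 6762, with the replicate letter as a block, to 9854 without both A libraries, against 8098. Without both A libraries, a choice made after seeing the data, 55.2% of all tested genes were called, so the list counts have a higher background there. Sphingosine supply then had 4 genes called higher and 8 lower, and other routes of ceramide 5 and 6. Other S1P enzymes, carriers and exporters had 4 and 2, receptor coupling 7 and 9, and partners of S1PR1 6 and 1. No result changed direction among those called.

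The letters did not pair the libraries: deviations of same-lettered libraries correlated between -0.237 and -0.00303, and no EFNB2 guide library correlated best with its own letter. With the replicate block, 6762 genes were called, the S1P genes kept 3 calls, and SPTLC1, GBA2, ARHGEF12 and DBP (adjusted p = 0.051) were no longer called. EFNB2 had no value with the 1 CPM filter. Depth leaves S1PR3, S1PR4, S1PR5 and SPNS2 without a usable fold change.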

Other observations

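Of 17 tested genes nearest to an S1P gene on the chromosome without overlapping one, 2 were called higher, 6 lower and 9 not at all, a share called of 47.1%, near the 45.4% of all genes. The 4 named here were picked after their values were seen. DPH5, 211115 bases from S1PR1, had 23.8 ± 0.747 CPM in EFNB2 guide libraries, against 29.9 ± 1.95 CPM in control libraries (SD, n = 5 each). Its log2 fold change was -0.33 (adjusted p = 2.3e-05, edgeR's quasi-likelihood test), opposite in sign to S1PR1. CA11, 7541 bases from SPHK2, had a log2 fold change of -0.26 (adjusted p = 0.000871), and UBE2G1, 132206 bases from SPNS2, had -0.33 (adjusted p = 3.75e-07). ATG4D, 25939 bases from S1PR5, rose by 0.51 on the log2 scale (adjusted p = 1.55e-06), while S1PR5 had 0 counts in every library.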
